A study of Mus musculus with 7 samples.

Results

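The 9 genes Bcl6, Prdm1, Xbp1, Irf4, Sdc1, Pou2af1, S1pr2, Mzb1 and Jchain, which mark or direct the germinal centre and plasma cell stages of B cell life, were followed across 7 mouse lymphoma cell lines. The members were chosen by name, and all 9 were found by Entrez identifier among the 27179 genes of each count table. Every line came from an end-stage lymphoma of an Eµ-Myc transgenic male of the C57BL/6 strain. This transgene places Myc under an immunoglobulin heavy chain enhancer, so that tumours arise in the B lineage. The comparison was between 3 lines of wild-type genotype for Smchd1, which encodes a protein of chromatin with a known role in silencing, and 4 lines that the labels describe as homozygous for a gene trap of Smchd1 and call Smchd1 null. The methods of the study name the mutant allele MD1. No treatment was given and no age was labelled, and whether a line is a single clone was not stated. Wild-type replicate 1 was sequenced in batch 1 with single-end reads and the other 6 libraries in batch 2 with paired-end reads, so that batch and this line cannot be told apart.

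A germinal centre is the site in a lymphoid organ where activated B cells divide and mutate their antibody genes. BCL6, a transcriptional repressor, holds B cells in that state. Exit towards antibody secretion is driven by IRF4 and by Blimp-1, the product of Prdm1, which shuts off the B cell programme. XBP1 then enlarges the endoplasmic reticulum, the compartment in which antibody is folded. OCA-B, the product of Pou2af1, is a coactivator that binds Oct transcription factors on immunoglobulin and other B cell promoters and is needed for germinal centres to form. Lymphomas of Eµ-Myc mice are known to resemble precursor or immature B cells, stages that come before either programme.

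Total counts ran from 3626853 in wild-type replicate 1 to 7519549 in Smchd1 null replicate 4, and 3 counts, taken as the smallest level these depths can show, corresponded to 0.399 to 0.827 CPM, the count scaled to a common library total. Smchd1 itself lay between 219 and 248 CPM in the wild-type lines and between 22.6 and 28.7 CPM in the Smchd1 null lines, so the labels and the targeted gene matched. Some libraries stood apart. Wild-type replicates 2 and 3 were far closer to each other (leading log2 fold change distance 1.27) than any line was, on average, to the rest of its group (2.70 to 4.77), and may not be independent. Farthest from their groups lay Smchd1 null replicate 4 and wild-type replicate 1 (4.77 and 4.15), which received the smallest weights in the fit, 0.249 and 0.246, against 3.79 and 3.06 for wild-type replicates 2 and 3. Defining markers of B cells summed to between 1125 and 2103 CPM in 6 lines and to 472 CPM in Smchd1 null replicate 4. T cell, myeloid, natural killer cell and erythroid markers summed to at most 61.8, 27.8, 2.53 and 0.80 CPM in any line, with Cd3e and Cd8a at 0 counts throughout. Of these, Lck alone reached 60.9 CPM and Itgam 23.1 CPM, so the T cell and myeloid sums rest largely on 1 gene each. Endothelial markers summed to between 47.7 and 223 CPM, of which Pecam1 alone was 44.1 to 219 CPM. Fibroblast markers reached 9.37 CPM in wild-type replicate 1 and at most 0.27 CPM elsewhere. In RNA from a whole culture, fewer cells of a kind and less RNA per cell cannot be told apart.

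As CPM divided by gene length in kilobases (RPKM), the members spanned several orders of magnitude. The median level over the 7 lines was highest for Pou2af1 (422 RPKM) and Mzb1 (370.1 RPKM), followed by Irf4 (70.8 RPKM), Xbp1 (18.6 RPKM), Sdc1 (13.3 RPKM), S1pr2 (2.57 RPKM), Bcl6 (0.40 RPKM), Prdm1 (0.032 RPKM) and Jchain (0 RPKM). Within this order, the ranges over lines overlapped for Pou2af1 and Mzb1, for Xbp1 and Sdc1, for S1pr2, Bcl6 and Prdm1 with each other, and for Prdm1 and Jchain. Through its low line, Pou2af1 (5.80 to 481 RPKM) also overlapped Irf4, Xbp1 and Sdc1. Irf4, from 53.6 to 82.0 RPKM, lay above the highest line of Xbp1 (45.2 RPKM), and the lowest line of Sdc1 (6.13 RPKM) lay above every line of S1pr2. Most lines thus had much RNA for the coactivator, the chaperone and Irf4, and little for the pair of repressors, Bcl6 and Prdm1, that oppose each other in germinal centre and plasma cell.

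**Figure D1:**
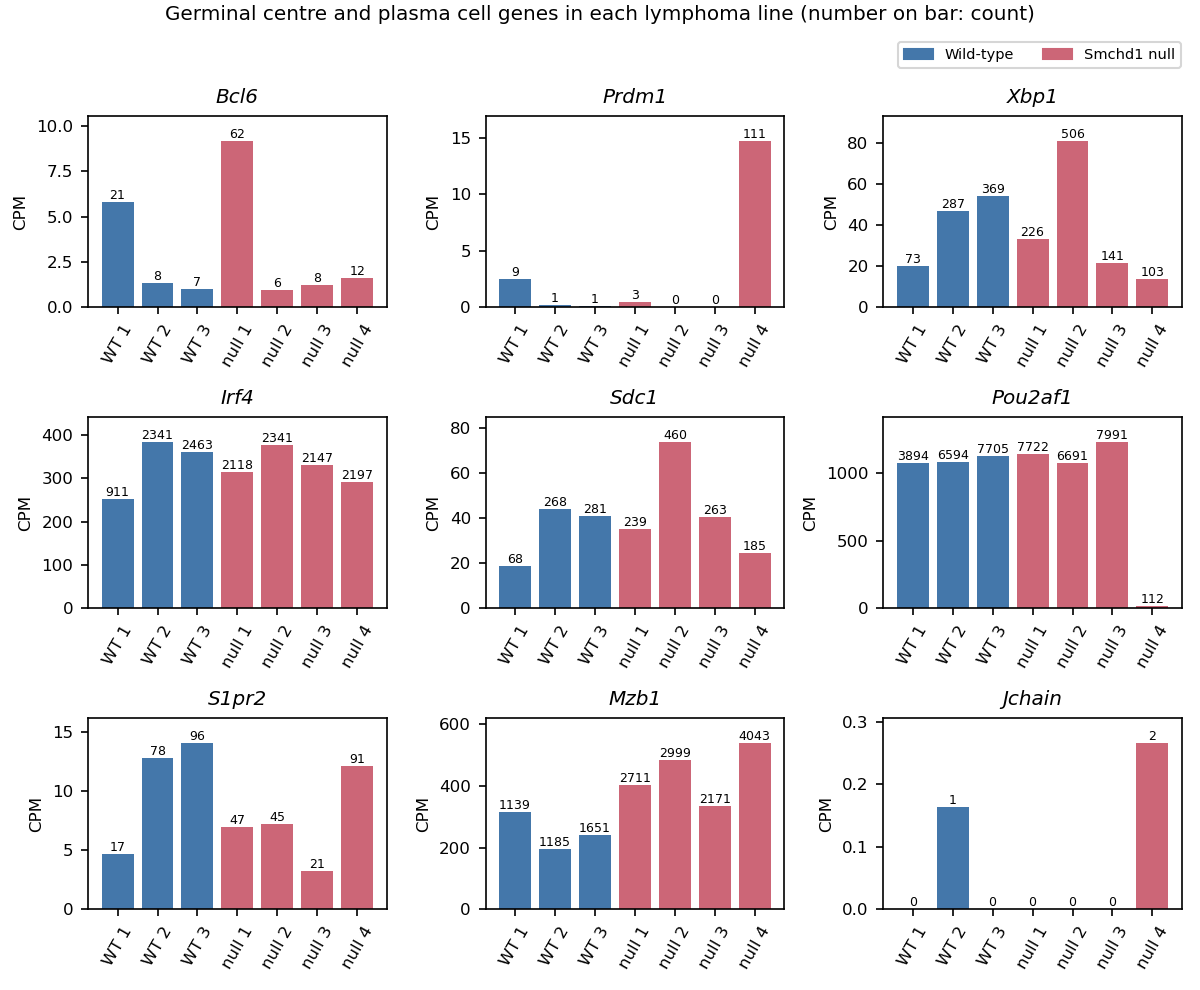
Level of each of the 9 genes in each lymphoma line, as a bar in CPM on a linear axis that starts at 0, with the raw count above the bar. Wild-type (WT) lines are blue and Smchd1 null lines red. Pou2af1 is even in 6 lines and stands at 14.9 CPM in Smchd1 null replicate 4, the line in which Prdm1 reaches 14.8 CPM.

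Pou2af1 (Entrez 18985, GRCm38 chromosome 9, 51213690 to 51240079) was the most abundant member and one of the most even, with 1 exception. It stood at 1074, 1082 and 1129 CPM in wild-type replicates 1 to 3 and at 1144, 1075, 1234 and 14.9 CPM in Smchd1 null replicates 1 to 4. The first 6 lines differed little between genotypes. Smchd1 null replicate 4 had 112 counts where the other lines had 3894 to 7991, which is 71.0-fold below the next lowest line after normalisation. Its SD over the 7 lines, 2.37 on the log2 CPM scale, exceeded that of 96.0% of the 12303 genes tested. The log2 fold change of Smchd1 null over wild-type was -0.38 (SE 0.68, limma FDR 0.736), and without Smchd1 null replicate 4 it was 0.03 (SE 0.09, limma FDR 0.838), with a 95% confidence interval of -0.18 to 0.24. With all 7 lines the interval ran from -1.94 to 1.18.

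Prdm1 (Entrez 12142, chromosome 10, 44437174 to 44528558), the gene of Blimp-1, went the other way in that line. It had 9, 1 and 1 counts in wild-type replicates 1 to 3 (2.48, 0.16 and 0.15 CPM) and 3, 0, 0 and 111 counts in Smchd1 null replicates 1 to 4 (0.44, 0, 0 and 14.8 CPM). Wild-type replicate 1 was thus the only other line above the level of 3 counts, and the 2 lines at 0 counts allow up to 0.482 and 0.463 CPM. Being at or above 0.5 CPM in only a pair of lines, Prdm1 did not pass the filter (0.5 CPM in at least 3 lines). When every gene with a count was fitted, its log2 fold change was not significant (limma FDR 0.822), and the size of that fold change rests on the offset voom adds to a count of 0.

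The 250 bases upstream of listed starts of Pou2af1 and Prdm1 are shown because these genes stood at opposite ends of their range in the same line, and those of the downstream of the 2 annotated starts of Bcl6 because BCL6 is known to bind its own gene. They are from RefSeq on GRCm38.p6, 5′ to 3′ on the strand of the gene, at chr9:51213440-51213689 (plus strand), chr10:44458749-44458998 (minus strand) and chr16:23981284-23981533 (minus strand). The start listed for Prdm1 is an internal one, within the coordinates given above for the gene and not at its outermost 5′ end, where no window was examined. The window shown for Bcl6 likewise lies within the coordinates of its gene. Capitals mark every match, on either strand, to 1 of 4 motifs, namely the octamer bound by Oct factors (ATTTGCAT), a Blimp-1 core (AGNGAAAG), a BCL6 core (TTCCNNGAA) and the core of the unfolded protein response element bound by XBP1 (TGACGTG).
Pou2af1: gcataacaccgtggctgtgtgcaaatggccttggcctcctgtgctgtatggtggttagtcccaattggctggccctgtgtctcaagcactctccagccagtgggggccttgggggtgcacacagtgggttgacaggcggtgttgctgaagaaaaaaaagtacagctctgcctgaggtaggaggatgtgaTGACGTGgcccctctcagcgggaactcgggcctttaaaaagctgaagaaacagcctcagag
Prdm1: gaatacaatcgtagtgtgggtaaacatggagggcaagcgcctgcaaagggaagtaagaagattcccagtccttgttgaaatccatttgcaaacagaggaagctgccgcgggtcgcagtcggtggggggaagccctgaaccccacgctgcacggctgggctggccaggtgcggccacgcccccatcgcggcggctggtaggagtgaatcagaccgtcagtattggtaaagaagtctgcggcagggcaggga
Bcl6: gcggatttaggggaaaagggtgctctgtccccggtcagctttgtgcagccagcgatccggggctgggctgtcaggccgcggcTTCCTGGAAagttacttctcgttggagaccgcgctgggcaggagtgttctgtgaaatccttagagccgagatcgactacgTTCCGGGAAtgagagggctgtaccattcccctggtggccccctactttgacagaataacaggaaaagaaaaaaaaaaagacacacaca

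The window of Pou2af1 holds 1 match to the XBP1 core, beginning 61 bases before the start, and the window of Bcl6 holds 2 matches to the BCL6 core, beginning 168 and 88 bases before the start. No match lies in the internal window of Prdm1, in the window at the other annotated start of Bcl6, nor in the other windows of the 8 members looked up (9 windows, 7 without a match). The reason for showing a Bcl6 window applies to both of its windows, and the one shown is the one with matches. Mzb1 was the member not looked up, so nothing is said here of its promoter. Of the 32851 RefSeq promoter windows of this length, 1.65% hold the XBP1 core, 4.06% the BCL6 core, 1.60% the octamer and 7.30% the Blimp-1 core. A match is a run of letters and not evidence of binding.

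Irf4 (Entrez 16364, chromosome 13, 30749233 to 30766981), which encodes a transcription factor that acts at low dose in germinal centre B cells and at high dose in plasma cells, was the most even member. It stood at 251, 384 and 361 CPM in the wild-type lines and at 314, 376, 332 and 292 CPM in Smchd1 null replicates 1 to 4. The groups overlapped, and after normalisation the highest line was 1.60-fold above the lowest. Its SD over lines, 0.24 on the log2 CPM scale, was larger than that of only 24.9% of the genes tested. The log2 fold change was -0.11 (SE 0.12, limma FDR 0.539) with a 95% confidence interval of -0.38 to 0.15. Smchd1 null replicate 4 was within the range of the other lines.

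Xbp1 (Entrez 22433, chromosome 11, 5520641 to 5525993) varied from line to line within both genotypes. It stood at 20.1, 47.1 and 54.1 CPM in the wild-type lines and at 33.5, 81.3, 21.8 and 13.7 CPM in Smchd1 null replicates 1 to 4. The highest and the lowest line were both Smchd1 null, 6.04-fold apart after normalisation, and the line with the most Prdm1 had the least Xbp1. Gene-level counts do not separate the spliced and unspliced forms of Xbp1 mRNA, of which the spliced form encodes the active factor. Between genotypes the log2 fold change was -0.24 (SE 0.42, limma FDR 0.724), and its 95% confidence interval of -1.19 to 0.71 leaves room for changes of more than 1.5-fold in either direction.

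Sdc1 (Entrez 20969, chromosome 12, 8771396 to 8793716) encodes syndecan 1 (CD138), the surface protein by which plasma cells are usually sorted. Its levels were 18.7, 44.0 and 41.2 CPM in wild-type replicates 1 to 3 and 35.4, 73.9, 40.6 and 24.6 CPM in Smchd1 null replicates 1 to 4. The order of lines resembled that of Xbp1, with Smchd1 null replicate 2 at the top of both, and the lowest level of each in either Smchd1 null replicate 4 (Xbp1) or wild-type replicate 1 (Sdc1). The log2 fold change was 0.21 (SE 0.28, limma FDR 0.638, 95% confidence interval -0.42 to 0.85). The line with 111 counts of Prdm1 was therefore not one with much Sdc1.

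Jchain (Entrez 16069, chromosome 5, 88519809 to 88527897), whose product links antibody molecules into polymers, was absent or nearly so. It had 1 count in wild-type replicate 2, 2 counts in Smchd1 null replicate 4 and 0 counts in the other 5 lines. Every value lay below the level that 3 counts can show, so differences between lines were not interpreted. Jchain is strongly expressed by plasma cells in general, but no line showed this transcript at these depths.

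Bcl6 (Entrez 12053, chromosome 16, 23965050 to 23988866) was low, and its higher values were in 1 line of each genotype. It stood at 5.79, 1.31 and 1.03 CPM in the wild-type lines (21, 8 and 7 counts) and at 9.18, 0.96, 1.24 and 1.60 CPM in Smchd1 null replicates 1 to 4 (62, 6, 8 and 12 counts). Smchd1 null replicate 1 and wild-type replicate 1 stood above the other 5 lines, and the groups overlapped over most of their range. The range over lines was 9.06-fold after normalisation. On the log2 scale the fold change was 0.72 (SE 0.72, limma FDR 0.536, 95% confidence interval -0.94 to 2.38), so neither a large increase nor a decrease could be told from no change. The 8 precursor B cell markers had their highest sum in wild-type replicate 1 (237 CPM), followed by Smchd1 null replicate 1 (103 CPM), with 42.7 to 93.1 CPM for 4 other lines and a lowest sum of 1.46 CPM in Smchd1 null replicate 4. In wild-type replicate 1 most of the sum was Rag1 (126 CPM) and Il7r (84.4 CPM). In Smchd1 null replicate 1 nearly all of it was Dntt (96.0 CPM), while Rag1, Rag2, Vpreb2 and Igll1 were at 0 and Il7r, at 6.81 CPM, was below every line but Smchd1 null replicate 4. Kit was at 0 in every line. The part of these markers in the level of Bcl6 was not tested.

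S1pr2 (Entrez 14739, chromosome 9, 20965952 to 20976793) encodes a sphingosine-1-phosphate receptor that keeps germinal centre B cells clustered. It stood at 4.69, 12.8 and 14.1 CPM in the wild-type lines (17, 78 and 96 counts) and at 6.96, 7.23, 3.24 and 12.1 CPM in Smchd1 null replicates 1 to 4 (47, 45, 21 and 91 counts). Wild-type replicates 2 and 3 were the highest lines, Smchd1 null replicate 4 came close to them, and wild-type replicate 1 lay among the other Smchd1 null lines. The log2 fold change was -1.06 (SE 0.31, 95% confidence interval -1.78 to -0.34), and the limma FDR of 0.0625 missed the threshold of 0.05. The FDR was 0.0453 in limma when wild-type replicate 1 was left out, and 0.922 when wild-type replicates 2 and 3 were summed into 1 sample, with a log2 fold change of -0.66. Over all alternatives the FDR ran from 0.0408 to 0.967.

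Mzb1 (Entrez 69816, chromosome 18, 35647265 to 35650266) encodes an endoplasmic reticulum chaperone of immunoglobulin assembly found in marginal zone B cells and plasma cells. It was at 314, 194 and 242 CPM in wild-type replicates 1 to 3 and at 401, 482, 335 and 538 CPM in Smchd1 null replicates 1 to 4. Every Smchd1 null line lay above every wild-type line, the nearest being 335 CPM and 314 CPM, and the group means were 250.1 CPM ± 60.3 (SD, n = 3) and 439 CPM ± 88.9 (SD, n = 4). Smchd1 null lines were higher by a log2 fold change of 0.97 (SE 0.16, limma FDR 0.0124, 95% confidence interval 0.61 to 1.32). It was the same size without Smchd1 null replicate 4 (0.96, limma FDR 0.0188) and without wild-type replicate 1, that is within batch 2 (0.97, limma FDR 0.0131). Both lines had the smallest weights in the fit with all lines (0.249 and 0.246), so leaving either out could move the estimate little. Within batch 2 the only wild-type lines are replicates 2 and 3, which may not be independent. With wild-type replicates 2 and 3 summed into 1 sample the log2 fold change was 0.73 (SE 0.26) and no longer significant (limma FDR 0.718). When wild-type replicate 2 or wild-type replicate 3 was left out, only 1 of all 12303 genes was called in each fit (0.00813%). The limma FDR of Mzb1 was 0.802 without wild-type replicate 2, 0.711 without wild-type replicate 3, 0.0546 without Smchd1 null replicate 1 and 0.0682 without Smchd1 null replicate 2, with log2 fold changes from 0.65 to 0.88. With voom alone it was 0.83 (limma FDR 0.215), and over all alternatives the FDR ran from 0.00781 to 0.802.

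Of the 9 members, 7 passed the filter and 1, Mzb1, was called differentially expressed (DE), that is, had a false discovery rate (FDR) under 0.05 in voom with sample weights. In that fit 11.9% of all 12303 genes were called, 5.06% higher and 6.85% lower in Smchd1 null lines, so that 1 call in 7 genes is near the background. Mzb1 was also the only one of the 7 whose groups did not overlap, a pattern found in 13.2% of all genes. Other strategies called 0.0975% (voom alone), 4.01% (voom with block weights), 4.23% (sample removal), 0.0975% (edgeR quasi-likelihood test), 3.21% (DESeq2), 11.2% (without Smchd1 null replicate 4) and 0.00813% (wild-type replicates 2 and 3 summed) of genes. Mzb1 was called with block weights, in DESeq2 and without Smchd1 null replicate 4, and in none of the other 4.

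**Figure D2:**
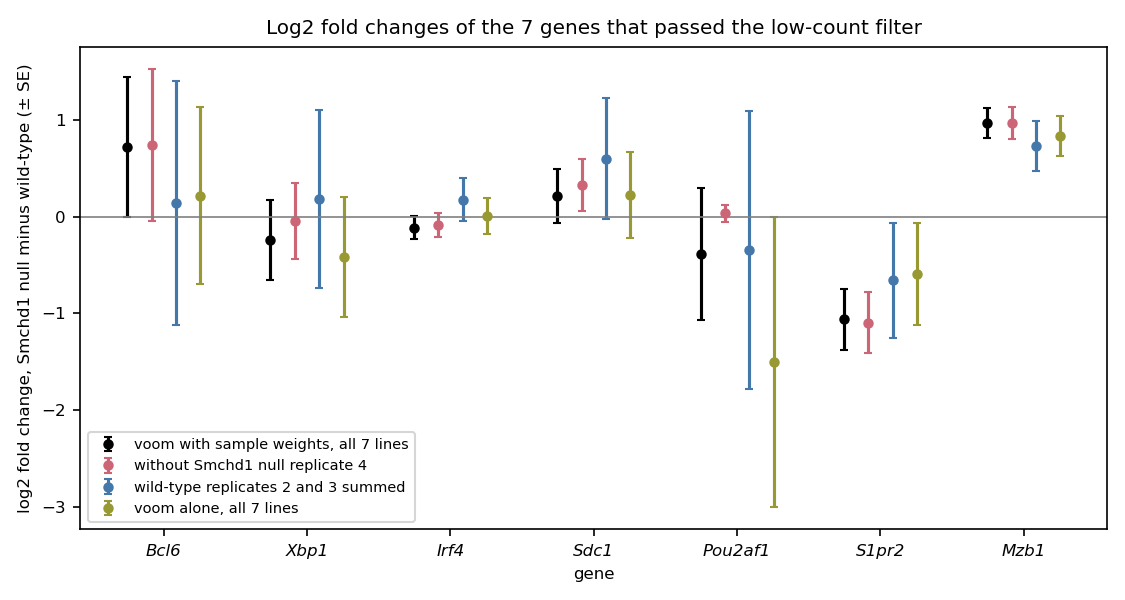
Log2 fold change (Smchd1 null minus wild-type) of the 7 genes that passed the filter, with bars of ± 1 standard error, under voom with sample weights on all lines, without Smchd1 null replicate 4, with wild-type replicates 2 and 3 summed, and with voom alone. Mzb1 stays between 0.73 and 0.97, whereas Pou2af1 moves from -1.50 with voom alone to 0.03 without Smchd1 null replicate 4.

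Of 30 genes of the wider germinal centre programme, 24 were tested, 1 was higher (4.17%, against 5.06% of all genes called higher and 11.9% called in either direction), 0 were lower and 23 did not pass, with a median log2 fold change of 0.08 against -0.01 over all genes. The called gene was Tnfrsf13c, the receptor for the B cell survival factor BAFF, at 10.8, 15.9 and 25.2 CPM in wild-type and 56.6, 49.8, 34.1 and 15.8 CPM in Smchd1 null lines (log2 fold change 1.16, SE 0.31, limma FDR 0.048). Smchd1 null replicate 4 lay within the wild-type range. The abundant Tcf3, Ezh2, Bach2 and Plxnb2 had limma FDRs from 0.129 to 0.738. The list mixes genes raised and genes lowered in germinal centre cells, so its median has no single direction. Some of its genes were not detected. Fas, Gcsam and Rgs13 had 0 counts in every line.

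The plasma cell programme showed 1 increase and 1 decrease among 22 tested genes of 26 (9.09% called, against 11.9% of all genes, with a median log2 fold change of 0.23). Spcs3, a subunit of the signal peptidase, was at 127, 93.8 and 107 CPM in wild-type and 135, 149.5, 158 and 184 CPM in Smchd1 null lines, with no overlap (log2 fold change 0.57, SE 0.11, limma FDR 0.019). Trp53inp1, a target of p53 involved in stress responses, was at 343, 605 and 653 CPM in wild-type and 264, 137, 242 and 229.5 CPM in Smchd1 null lines, again with no overlap (log2 fold change -1.66, SE 0.23, limma FDR 0.01). Among the abundant genes, Ighm, the heavy chain of IgM, was at 1627 to 2471 CPM with overlapping groups (limma FDR 0.216). Igkc, the kappa light chain, was at 679, 846 and 920 CPM in wild-type lines and 1419, 2276 and 1201 CPM in Smchd1 null replicates 1 to 3, but at 278 CPM in Smchd1 null replicate 4. Its log2 fold change was 0.78 with all lines (SE 0.34, limma FDR 0.158) and 0.99 without that line (SE 0.20, limma FDR 0.0262).

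The unfolded protein response and secretory pathway list had all 30 genes tested, with 2 higher, 3 lower and 25 not passing. The list is not limited to targets of XBP1 and the sensors upstream of it. The 5 calls are 16.7% of the list, against 11.9% of all genes, and the median log2 fold change was 0.00. Sec24d, a coat protein of vesicles leaving the endoplasmic reticulum, had at most 1 count in each wild-type line and stood at 16.7, 1.45, 4.17 and 34.7 CPM in Smchd1 null replicates 1 to 4 (limma FDR 0.0477), and its fitted fold change rests on the offset for counts of 0. Pdia3, a disulfide isomerase, was the other increase (log2 fold change 0.83, SE 0.14, limma FDR 0.015). The decreases were in Ddit3, which encodes the stress factor CHOP (-1.12, SE 0.22, limma FDR 0.0227), Syvn1, a ubiquitin ligase of the endoplasmic reticulum (-0.77, SE 0.19, limma FDR 0.0391), and Srp54a, of the signal recognition particle (-0.50, SE 0.10, limma FDR 0.0245). Of these 5, Sec24d and Srp54a had groups that did not overlap. The most abundant chaperones, Canx, Hspa5 and Calr, did not pass (limma FDR 0.102 to 0.893). Across the 30 genes, Smchd1 null replicate 2, which had the most Xbp1, was the highest line for 12, and Smchd1 null replicate 4, which had the least, was the lowest line for 12 and the highest for 6. Over all 12303 genes, Smchd1 null replicate 2 was the highest line for 9.93%, and Smchd1 null replicate 4 was the lowest for 21.2% and the highest for 22.0%.

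Of 20 B cell identity genes, most of them lowered in plasma cells, 18 were tested, 3 were higher, 1 was lower and 14 did not pass. The called genes were 22.2% of those tested, against 11.9% of all genes, with a median log2 fold change of 0.46. Spib, an ETS factor of B cells, was at 209, 136 and 177 CPM in wild-type and 218, 377, 340.3 and 443 CPM in Smchd1 null lines (log2 fold change 1.04, SE 0.20, limma FDR 0.0204). Swap70, a signalling protein of activated B cells, was at 64.5, 72.3 and 75.9 CPM and at 112, 121, 165 and 319 CPM (0.87, SE 0.19, limma FDR 0.0269). These did not overlap between groups. Cd79a, a signalling chain of the B cell receptor, was at 231, 181 and 211 CPM in wild-type lines and at 409, 414 and 444 CPM in Smchd1 null replicates 1 to 3, with Smchd1 null replicate 4 below all of them at 100.4 CPM (0.96, SE 0.25, limma FDR 0.0445). Ebf1, an early B cell factor, was the decrease (-0.67, SE 0.18, limma FDR 0.0494).

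Of 27 partners and regulators of the members, 24 were tested and 1 (4.17%, against 11.9% of all genes), Ikzf1, the gene of the lymphoid factor Ikaros, was called (log2 fold change 0.60, SE 0.14, limma FDR 0.0335, groups overlapping). The median log2 fold change was 0.01. The Oct factor genes through which OCA-B acts were both expressed, Pou2f1 at 67.5 to 98.7 CPM and Pou2f2 at 26.7 to 152 CPM, with the highest value of Pou2f2 in Smchd1 null replicate 4. Of the other receptors for sphingosine-1-phosphate, S1pr1, which draws lymphocytes out of tissue, ran from 19.2 to 81.7 CPM, S1pr4 from 9.68 to 26.7 CPM, and S1pr3 had at most 1 count in any line. Gna13, the G protein gene through which S1PR2 signals, ran from 127 to 260.1 CPM. Like nearly all calls over the 12303 genes, the calls in these 5 lists depend on wild-type replicates 2 and 3. Without either of them or with them summed, 0 genes of any list were called, but only 1 of all genes was (0.00813%). Each of these fits leaves 2 wild-type samples, and the paper states that the samples of such a group receive equal weight. The fit without wild-type replicate 1 also leaves 2 wild-type samples, namely replicates 2 and 3, and it called 13.7% of all genes. The reason for the difference was not tested. As the calls were lost over all genes, their loss is not particular to the lists. Of the 7 single-line omissions, the call of Tnfrsf13c held only without Smchd1 null replicate 4.

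Smchd1 null replicate 4 was then described gene by gene, a choice made after the values of Pou2af1 and Prdm1 were seen. It is a single line, so the differences have no replicate check. Over all 12303 genes, 4.01% were at least 2-fold above every other line in this library and 3.05% at least 2-fold below every other line. The filter asks for 3 lines, so a gene present in this line alone is not among them. Of the 7 tested members, only Pou2af1 was beyond the other lines by this margin.

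In the plasma cell programme, 7 of 22 tested genes were at least 2-fold above every other line and 2 were as far below. Ell2, an elongation factor that favours the secreted form of immunoglobulin mRNA, was at 140.2 CPM against 0.28 to 24.4 CPM in the other 6 lines. Tnfrsf13b, the receptor TACI, was at 80.7 CPM against 9.03 to 19.8 CPM. Sec11c, a signal peptidase subunit, was at 443 CPM against 99.4 to 189 CPM, and Lman1, a cargo receptor, at 511 CPM against 147 to 217 CPM. Atf5 (129 CPM), Itgb7 (83.0 CPM) and Tent5c (4.65 CPM) were the others above. Cd28 and Cd9, which failed the filter, had 143 and 168 counts in this line and 0 in the other 6. Cd93 and Igkc were the genes below. Other genes of the programme were not high in this line. Slamf7 was at 64.0 CPM against 115 to 388 CPM, and Tnfrsf17, the receptor BCMA, had 0 counts.

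In the B cell identity list, 5 of 18 tested genes were at least 2-fold below every other line in Smchd1 null replicate 4 and 1, Blk, was as far above. Examples of those below follow. Cd22 was at 25.4 CPM against 180.0 to 341 CPM, and Blnk at 40.7 CPM against 146 to 299.9 CPM. Pax5, the factor that maintains B cell identity, was at 16.6 CPM against 51.3 to 84.9 CPM. Ikzf3 was at 17.8 CPM against 91.2 to 187 CPM, which is not by itself a plasma cell trait. Other B cell genes were not low. Cd79b (303 CPM) and Ighm (2368 CPM) lay within the range of the other lines, and Spib and Swap70 were at their highest there.

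Of the 24 tested germinal centre genes, 7 were at least 2-fold above and 4 at least 2-fold below every other line in Smchd1 null replicate 4. The list mixes genes raised and genes lowered at that stage, so these counts have no single direction. Bach2, a repressor of Prdm1, was at 23.3 CPM against 233 to 309 CPM and Irf8 at 8.11 CPM against 70.9 to 97.1 CPM. Tcf3 was at 213 CPM against 429 to 563 CPM. Cd38, whose low level is not by itself a loss of the germinal centre stage, was at 3.06 CPM against 10.04 to 104 CPM. Those above were Lmo2 (101 CPM), Stap1 (50.3 CPM), Efnb1 (19.5 CPM), Mef2b (10.4 CPM), Ccnd2 (9.84 CPM), Cd86 (5.59 CPM) and Cxcr5 (4.39 CPM). Batf, which encodes a partner of IRF4 and failed the filter, had 730 counts (97.1 CPM) in this line and at most 1.24 CPM elsewhere. In the unfolded protein response list, only Ern1, the gene of the sensor IRE1 that splices Xbp1 mRNA (57.6 CPM against 10.7 to 24.9 CPM), and Dnajb9, a chaperone induced through XBP1 (9.97 CPM against 22.3 to 32.7 CPM), were beyond the others by 2-fold, in opposite directions. Precursor B cell markers summed to 1.46 CPM in this line and to between 42.7 and 237 CPM in the other 6, and Pecam1, also found on endothelial cells, was at 219 CPM against 44.1 to 94.2 CPM, the 4 endothelial markers together summing to 223 CPM against 47.7 to 96.0 CPM. Of the other 3, Tek was at 3.06 CPM (23 counts) against at most 0.16 CPM, Cdh5 at 1.33 CPM against 1.28 to 3.58 CPM, and Kdr at 0 in every line. The part of these in the levels of Prdm1 and Pou2af1 was not tested.

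**Figure D3:**
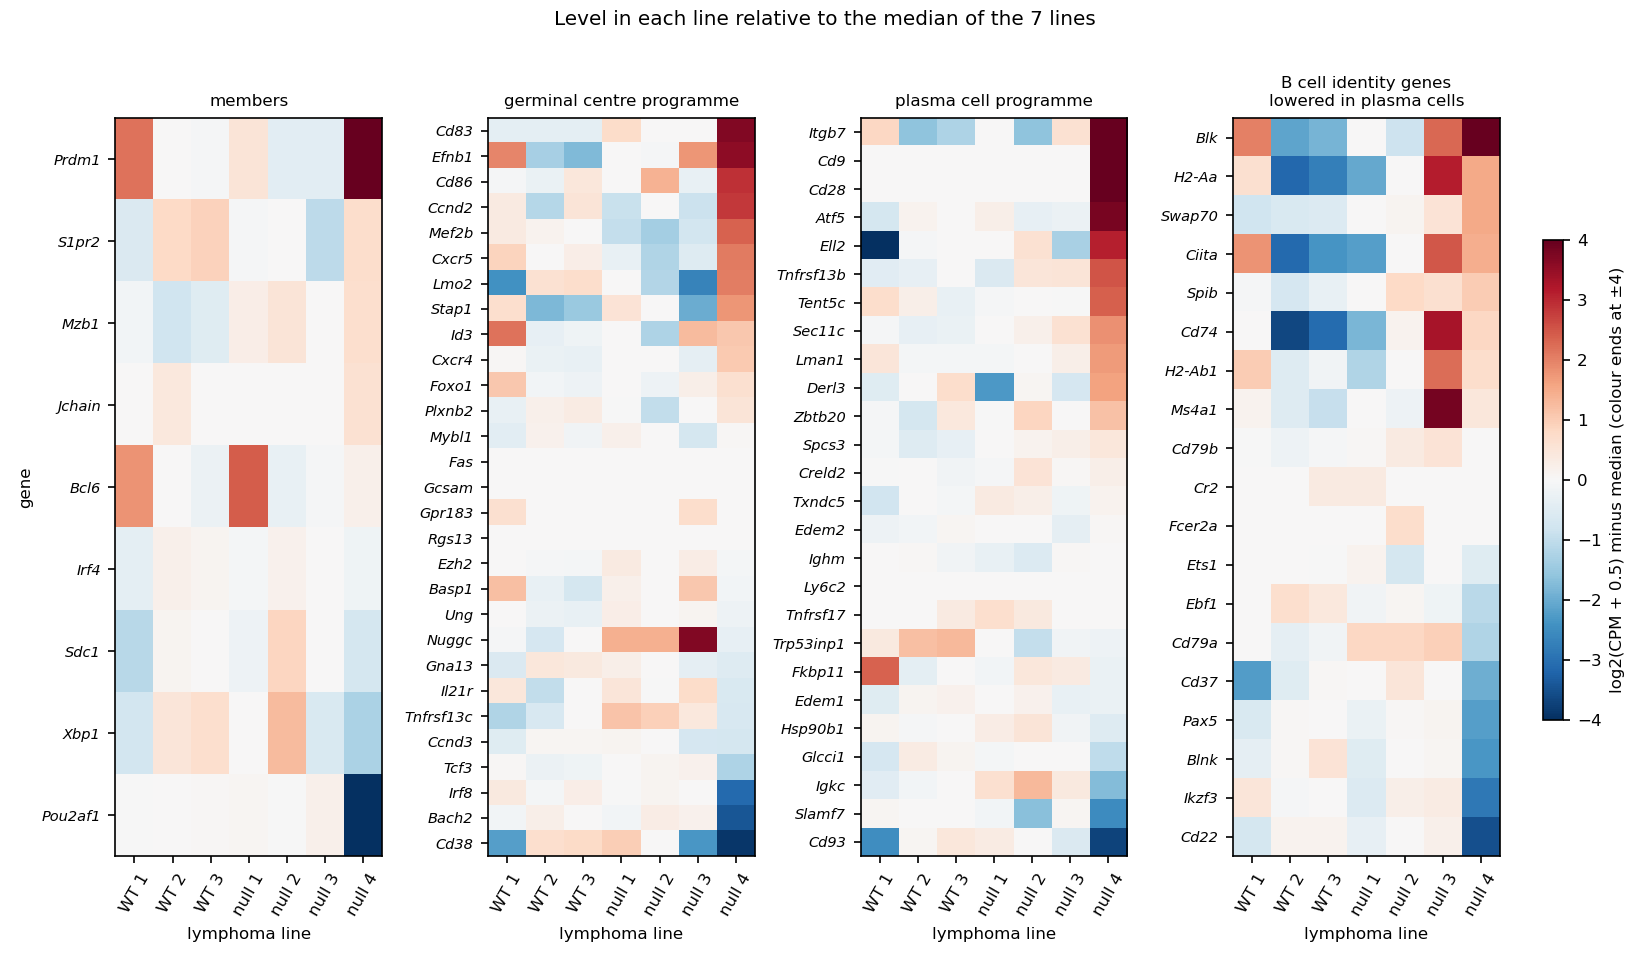
Level of each gene in each line relative to the median of the 7 lines, as log2(CPM + 0.5) with colours that end at ± 4, for the 9 members and genes of 3 lists, ordered by the value in Smchd1 null replicate 4 (WT, wild-type; null, Smchd1 null). The column of Smchd1 null replicate 4 holds the strongest colours, with Prdm1 and plasma cell genes such as Ell2, Cd28 and Cd9 at the top and Pou2af1, Cd93 and Cd22 towards the bottom of their panels.

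Genes whose profile was most like that of a member were sought for the 2 tested members whose SD over lines was above 1 on the log2 scale. Likeness was the root mean square difference between centred log2 CPM profiles over the 7 lines, among which wild-type replicates 2 and 3 are nearly alike. Nearest to Pou2af1 was Sdc4, another syndecan, at a difference of 0.29, with 93.7 to 183 CPM in 6 lines and 1.46 CPM in Smchd1 null replicate 4. Next was Hus1b at 0.29, with 3.03 to 5.42 CPM and 0 CPM, and its likeness rests on the offset added to a count of 0. Nearest to Bcl6 was Gm9631 at 0.32, with 15.6 CPM in Smchd1 null replicate 1, 5.79 CPM in wild-type replicate 1 and at most 2.00 CPM elsewhere, and then Ogdhl at 0.61. These are descriptions of the lines, taken from many genes.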

How the data were processed

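RNA from 7 lines (3 wild-type, 4 Smchd1 null) was sequenced after TruSeq library preparation. The authors aligned the reads to mm10 with Subread and summarised them with featureCounts, and deposited 1 table of raw counts per library with a gene length per Entrez gene. Treatment of multi-mapping reads and strand was not stated. Symbols and coordinates were taken by Entrez identifier from RefSeq on GRCm38.p6, the same build as mm10 (25275 of 27179 genes, 98.24% of counts). CPM used the total count of each library. Counting intervals are not given, and floors of 3 counts cover counting error only.

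The 12303 genes that reached 0.5 CPM in 3 libraries were normalised by TMM and fitted with voomWithQualityWeights, lmFit and eBayes, with no covariate (R 4.3.3, limma 3.58.1, edgeR 4.0.16), following the methods of the study. The FDR is the Benjamini-Hochberg adjusted p-value over all genes tested. The script was tested on simulated data. Alternatives were voom alone, block weights, sample removal, relative log expression factors, no filter (9 members testable), at least 10 counts in every sample, omission of each replicate, a replicate block, DESeq2 1.42.0, edgeR quasi-likelihood, a batch term, and summing of wild-type replicates 2 and 3. A pair, namely voom alone without Smchd1 null replicate 4 and the sum without that line, was added after the data were seen.

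The members and gene lists were chosen with earlier results of these data known. Genes named are the members, up to 4 called genes per direction and the 4 most abundant genes of each list, the 2 nearest profiles of variable members, and marker genes. Genes named for their level in Smchd1 null replicate 4 or for being near 0 were chosen after their values were seen. The labels do not say that the lines of a group are from separate mice, so p-values measure only the spread between these samples, which may be technical. Some genes of the lists are not reported here by name, though they remain in the counts.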

Additional observations from a re-analysis of the deposited data

Results flagged for a closer look

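The 9 members were screened in the Smchd1 null group, as log2(CPM + 0.5), with the Dixon ratio at the 95% level, which divides the distance between an extreme line and its neighbour by the range of the 4 lines. The wild-type group, with 3 lines, is too small for this screen. It picked out 2 of 9 members, where chance picks about 1 in 20 groups. The same screen picked out 7.25% of the 12298 tested genes that varied within this group, and for 4.38% the extreme line was Smchd1 null replicate 4, so that such values were not particular to the members. Pou2af1 had a ratio of 0.968 for Smchd1 null replicate 4, where it stood at 14.9 CPM against 1075 to 1234 CPM in the other 3 lines. Jchain had a ratio of 1.00 for the same line, but this is fixed by 0 counts in the other 3 lines and rests on 2 counts, which is below the level that 3 counts can show. Prdm1, with a ratio of 0.814 for that line, and Bcl6, with 0.81 for Smchd1 null replicate 1, fell just short.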

How the results depend on the processing

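Calls depended on the weighting and on wild-type replicates 2 and 3, over all genes as well as in the members and lists. With voom alone, the edgeR quasi-likelihood test, the sum of wild-type replicates 2 and 3, and both added alternatives, 0 members and 0 genes of every list were called in limma or edgeR. At an unadjusted p under 0.05 each of these 5 held 1 member, Mzb1. Counts are given for the members and then the germinal centre, plasma cell, unfolded protein response, B cell identity and partner lists. They were 1, 1, 2, 5, 4 and 1 in voom with sample weights, 1, 0, 2, 1, 0 and 0 with block weights, 0, 0, 1, 1, 1 and 0 after sample removal, and 1, 0, 2, 1, 2 and 0 in DESeq2. With each replicate left out in turn they ran from 0 to 2, 0 to 2, 0 to 4, 0 to 6, 0 to 4 and 0 to 1. At least 10 counts in every sample, and batch as a covariate, gave 2 members, Mzb1 and S1pr2, and no filter gave 2 B cell identity genes. Same-numbered lines showed no shared deviation (correlations of -0.15, 0.22 and -0.20 over genes), and with the replicate block the counts were 0, 1, 1, 1, 1 and 0.

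The direction of uncalled members other than S1pr2 was not the same in every alternative. It turned in 3 of 19 alternatives for Bcl6 and in 5, 6, 1 and 5 of 20 for Xbp1, Irf4, Sdc1 and Pou2af1. Xbp1 turned to 0.34 with the replicate block, 0.18 with wild-type replicates 2 and 3 summed and 0.34 with that sum without Smchd1 null replicate 4. Irf4 turned to 0.005 with voom alone, 0.17 with the sum, and 0.072 and 0.18 in the added alternatives. Pou2af1 turned to 0.048 after sample removal, 0.032 with the replicate block, and 0.092 and 0.074 in the added alternatives. With each replicate left out, log2 fold changes ran from -0.25 to 1.05 for Bcl6, -1.07 to 0.37 for Xbp1, -0.20 to 0.21 for Irf4, -0.21 to 0.72 for Sdc1 and -0.75 to 0.032 for Pou2af1. Mzb1 (0.65 to 1.05) and S1pr2 (-1.36 to -0.41) kept their direction in every alternative. The cause was not tested. Depth limits Prdm1, Jchain and Bcl6, which had few counts in most lines.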
